A study of Mus musculus with 2 samples.

Results

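The MYC, MAX and MXD network is a set of related transcription factor genes, described here over 10 genes: *Myc*, *Mycn*, *Mycl*, *Max*, *Mxd1*, *Mxd3*, *Mxd4*, *Mxi1*, *Mnt* and *Mlx*. They were found by gene symbol, and all 10 were among the 21878 symbols listed in the deposited tables. Genes were tested where their counts in the libraries added up to 20 or more, which 13027 genes and all 10 of these met. PolyA RNA was sequenced from FVB/N mouse liver, with 1 library from mice given TSA and 1 from mice with no treatment (untreated). Both groups had received c-Myc by hydrodynamic injection, in which a large volume pushed quickly into the tail vein carries DNA into liver cells. The labels spell out neither TSA nor its dose or timing, and they do not give the age of the mice, the species of the injected sequence, or whether a library held tumour, whole liver, 1 animal or a pool. The series title links TSA to slower c-Myc-driven liver tumour development, and the comparison asks how the liver transcriptome differed with TSA.

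Proteins of this network act in pairs. MYC and its paralogs N-MYC and L-MYC bind DNA as heterodimers with MAX, at E-box sequences of which CACGTG is the best known, and mostly activate genes for growth, ribosome assembly and metabolism. MXD1, MXD3, MXD4, MXI1 and MNT also pair with MAX, recruit the SIN3 corepressor with its histone deacetylases, and repress genes at such sites. MLX forms a parallel branch: it pairs with the glucose-sensing factors MondoA and ChREBP, of which ChREBP is abundant in liver, and with some MXD proteins and MNT. In the adult liver MYC is low at rest, is induced when hepatocytes enter the cell cycle, and drives liver tumours in mice when it is overexpressed.

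The network's own promoters hold its binding sequence in some cases, and the 4 found to do so are shown. Promoters were taken from RefSeq on build GRCm38.p6, from 250 bases before to 50 after the start of transcription, for 9 of the 10 genes and 11 promoters in all. The gene left out is *Myc*, for which no promoter was available, so its promoter was not searched. CACGTG, which reads the same on both strands, was present in 4 of the 11 promoters, those of *Max*, *Mnt*, *Mxd4* and *Mlx*. Of all 32851 RefSeq promoters of the same length 7.15% held it. The related letters CACGCG, searched on both strands, were found in the *Mycl* promoter and in 9.27% of all promoters. The sequences below run 5′ to 3′ on the strand of the gene and end 10 bases after the start, with CACGTG in capitals.
*Max* (chr12:76962239-76962498, minus strand): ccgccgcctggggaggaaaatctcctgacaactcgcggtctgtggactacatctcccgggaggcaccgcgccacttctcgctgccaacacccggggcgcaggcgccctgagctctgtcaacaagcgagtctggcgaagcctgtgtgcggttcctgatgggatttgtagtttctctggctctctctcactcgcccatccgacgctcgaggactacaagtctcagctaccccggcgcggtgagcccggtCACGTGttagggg
*Mnt* (chr11:74830674-74830933, plus strand): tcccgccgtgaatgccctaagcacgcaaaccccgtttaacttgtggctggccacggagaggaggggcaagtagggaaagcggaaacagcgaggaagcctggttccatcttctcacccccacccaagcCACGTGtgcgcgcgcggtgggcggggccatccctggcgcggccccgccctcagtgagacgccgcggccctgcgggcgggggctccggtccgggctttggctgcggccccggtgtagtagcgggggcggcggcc
*Mxd4* (chr5:34187701-34187960, minus strand): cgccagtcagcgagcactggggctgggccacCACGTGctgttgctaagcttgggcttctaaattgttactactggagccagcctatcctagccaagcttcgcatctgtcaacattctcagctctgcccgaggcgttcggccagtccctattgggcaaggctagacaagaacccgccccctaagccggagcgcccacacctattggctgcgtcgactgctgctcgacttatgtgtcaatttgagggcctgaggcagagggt
*Mlx* (chr11:101087040-101087299, plus strand): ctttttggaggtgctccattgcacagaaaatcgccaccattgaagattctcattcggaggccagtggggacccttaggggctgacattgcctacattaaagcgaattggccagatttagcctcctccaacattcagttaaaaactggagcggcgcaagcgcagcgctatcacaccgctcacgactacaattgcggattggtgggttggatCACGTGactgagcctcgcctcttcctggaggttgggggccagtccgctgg
Counting the base before the start as -1, the first base of CACGTG lay at -3 in *Max*, -123 in *Mnt*, -219 in *Mxd4* and -40 in *Mlx*. A match in these letters is a description of the sequence and was not tested as a binding site. The authors named no genome build in the sources used here, and these coordinates were not joined to the counts.

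The libraries held 17088227 counts (TSA) and 17281523 counts (untreated). With 1 library per group no test between conditions was possible, and the 95% intervals given after each value cover counting error only, not the variation between animals. Ratios are TSA over untreated after TMM scaling, a method that takes most genes to be equal between libraries. Where TSA had less, the inverse of the ratio is written as a fold lower. A gene counts as called when TSA and untreated differed 2-fold or more and the interval left out a ratio of 1. With TMM 26.0% of all genes tested were called higher and 27.4% lower. It is therefore in doubt that most genes were equal, as TMM takes them to be, and calls that change with total counts are less certain. FPKM values, which are scaled to gene model length and to the library's total count, are used to compare levels between genes. They follow total counts, so that, relative to the TMM ratio, a ratio of FPKM between libraries is shifted by -0.85 on the log2 scale.

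Marker genes were fixed by list to check the tissue. All 9 hepatocyte markers were detected in both libraries and called higher in the TSA library, with a summed level of 63751 FPKM there and 6107 FPKM in the untreated library. All 8 proliferation markers were called lower, at 3.63 FPKM summed with TSA and 549 FPKM without. Endothelial markers were higher in 6 of 7 cases (116 FPKM summed in TSA, 27.5 FPKM in untreated), stellate cell markers higher in 5 of 7 and lower in 1 (113 and 53.7 FPKM), and Kupffer cell and macrophage markers higher in 5 of 7 and lower in 1 (184 and 222 FPKM). Erythroid markers were higher in all 4 tested of 5 (420.3 FPKM in TSA, 149.6 FPKM in untreated), lymphocyte markers in 3 of 5 tested of 7 (7.73 and 5.61 FPKM), and cholangiocyte markers were higher in 3 of 6 and lower in 3 (22.9 and 52.6 FPKM). These calls use TMM, with 26.0% of all genes tested called higher and 27.4% lower, while summed FPKM follow total counts. With total counts 16.0% of all genes were higher and 48.7% lower. Hepatocyte markers were then higher in 8 cases, endothelial in 4, erythroid in 4 and lymphocyte in 2. Stellate cell markers were higher in 4 and lower in 2, Kupffer cell and macrophage markers 3 and 2, cholangiocyte markers 2 and 3. All 8 proliferation markers stayed lower. No marker in these lists was at 0 in either library. Their part in the network genes' ratios was not tested, and in whole tissue fewer cells of a type and less RNA per cell cannot be told apart.

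With TSA the network held more RNA counted for *Myc*, *Mycl* and *Mxd4* and less for *Max* and *Mxd3*. Of the 10 genes 3 were called higher, where 26.0% of all genes tested were, and 2 were called lower, against 27.4% of all genes, so the share called was near that of the transcriptome. The remaining 5, *Mycn*, *Mxd1*, *Mxi1*, *Mnt* and *Mlx*, were not called. The log2 ratios spanned -5.61 to 4.66, and their median was 0.44 above the median of all genes. With total-count scaling 2 were called higher, against 16.0% of all genes, and 5 lower, against 48.7%: the call of *Mxd4* was lost, and *Mxd1*, *Mxi1* and *Mnt* joined *Max* and *Mxd3*.

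**Figure D1:**
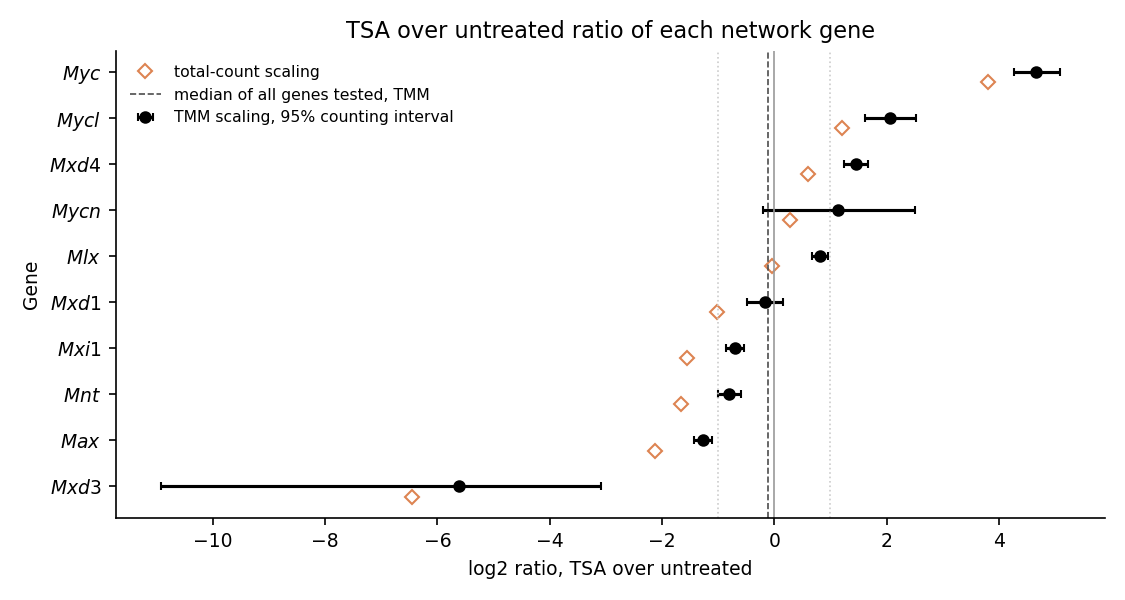
TSA over untreated log2 ratio of each network gene, with TMM scaling (black points, bars are 95% counting intervals) and with total counts (open diamonds); dotted lines mark ratios of 2 in each direction and the dashed line the median of all genes tested. *Myc* stands highest at 4.66 and *Mxd3* lowest at -5.61, whose interval runs from -10.93 to -3.09.

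Among the MYC paralogs, *Myc* itself showed the largest difference. Mouse *Myc* had 763 counts (18.6 FPKM) in the TSA library and 55 counts (1.33 FPKM) in the untreated library. It was 25.3-fold (19.2 to 33.9) higher, and 14.0-fold (10.7 to 18.8) higher with total counts. Among genes detected in the same library, *Myc* ranked at percentile 83.6 by FPKM with TSA and at percentile 31.8 without it. The labels put c-Myc injection in both groups, so these counts check neither label. Reads from an injected mouse sequence and from the resident gene could not be told apart. An injected sequence of another species may be missing from these counts, so total *Myc* RNA is not known for either library. This limit holds for every *Myc* value given below.

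The other paralogs were scarce in both libraries. *Mycl*, which codes for L-MYC, had 135 counts (1.80 FPKM) with TSA and 59 counts (0.779 FPKM) without, and was 4.18-fold (3.05 to 5.77) higher. With total counts it was 2.31-fold (1.69 to 3.20) higher and still called. *Mycn*, which codes for N-MYC, had 12 counts (0.271 FPKM) with TSA and 10 counts (0.223 FPKM) without. Its ratio of 2.19 had an interval from 0.867 to 5.66, so no difference was detectable at this depth. *Myc* made up 90.0% of the summed FPKM of the 3 paralogs in the TSA library and 57.0% in the untreated library, and *Mycl* 8.72% and 33.5%.

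The genes closest to *Myc* in this comparison were sought among the 13027 tested, as those with the smallest difference in log2 ratio from *Myc* at a TSA level within 1.5-fold of it, leaving out predicted gene models. They were *Optn*, *Shpk*, *Pla1a*, *Slc10a5* and *Cd14*. *Optn*, for the autophagy receptor optineurin, had 27.2 FPKM with TSA and 1.92 FPKM without, and was 25.5-fold (20.7 to 31.6) higher. *Cd14*, for a lipopolysaccharide co-receptor of myeloid cells that hepatocytes also produce, had 16.8 FPKM with TSA and 1.11 FPKM without, and was 27.1-fold (19.0 to 40.1) higher. With 2 libraries, likeness rests on a single ratio.

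*Max*, the shared partner of the MYC and MXD proteins, was lower with TSA. It had 381 counts (8.63 FPKM) in the TSA library and 1670 counts (37.4 FPKM) in the untreated library. It was 2.40-fold (2.15 to 2.69) lower, and 4.33-fold (3.88 to 4.86) lower with total counts. In the untreated library *Max* was the most abundant of the 10 genes per length, and in the TSA library it came after *Mxd4*, *Mlx* and *Myc*. By FPKM it ranked at percentile 71.0 of detected genes with TSA and 86.0 without.

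**Figure D2:**
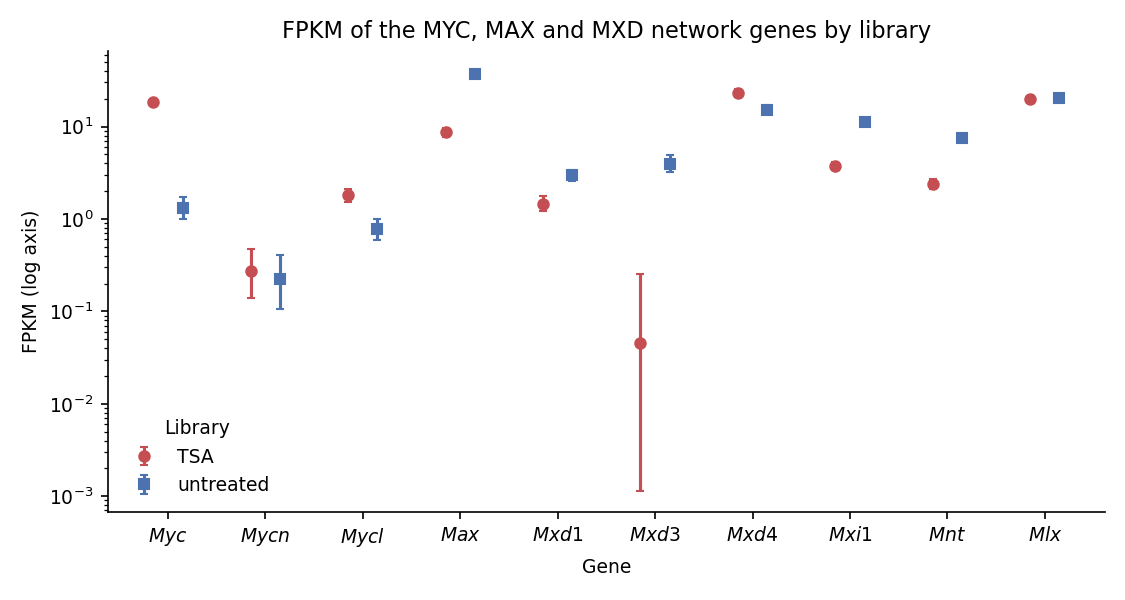
FPKM (log axis) of each network gene in the TSA library (red circles) and the untreated library (blue squares), 1 library per group, with bars for exact 95% Poisson intervals of the counts. *Myc* had 18.6 FPKM with TSA and 1.33 without, *Max* 8.63 and 37.4, and *Mxd3*, at 1 count with TSA, 0.045 and 3.96.

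The MXD repressor genes differed from each other. *Mxd4*, in mouse studies tied to cells that leave the cycle and differentiate, had 465 counts (23.1 FPKM) with TSA and 310 counts (15.2 FPKM) without. It was 2.74-fold (2.37 to 3.17) higher and called with TMM, and 1.52-fold (1.31 to 1.76) higher and not called with total counts. *Mxd3*, in mouse studies tied to S phase in proliferating cells, had 1 count (0.045 FPKM) with TSA and 89 counts (3.96 FPKM) without. The single count leaves its ratio, 48.8-fold lower, with an interval from 8.53-fold to 1948-fold.

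*Mxd3* was low in the library in which proliferation genes were low. Per FPKM of *Mki67*, the gene of the proliferation marker Ki-67, *Mxd3* stood at 0.0727 (0.00182 to 0.414) in the TSA library and at 0.0746 (0.0598 to 0.0919) in the untreated library. Per summed FPKM of all 8 proliferation markers *Mxd3* stood at 0.0124 with TSA and 0.00723 without. The 8 markers were between 47.6-fold and 137-fold lower. *Mki67* was chosen for this ratio after its values were seen, and the wide interval with TSA comes from the single *Mxd3* count.

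*Mxd1*, induced in many cell types as they differentiate, had 121 counts (1.47 FPKM) with TSA and 247 counts (2.96 FPKM) without. It was 1.12-fold (0.896 to 1.40) lower with TMM, an interval that includes no difference, and 2.02-fold (1.62 to 2.53) lower with total counts. *Mxi1*, which codes for MXI1 (also called MAD2 or MXD2), had 425 counts (3.77 FPKM) with TSA and 1264 counts (11.1 FPKM) without. It was 1.63-fold (1.46 to 1.82) lower, short of the size needed for a call, and 2.94-fold (2.63 to 3.29) lower and called with total counts.

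*Mnt*, the widely expressed repressor that shares MAX with MYC in resting and cycling cells alike, had 268 counts (2.41 FPKM) with TSA and 852 counts (7.58 FPKM) without. It was 1.74-fold (1.52 to 2.01) lower and not called with TMM, and 3.14-fold (2.74 to 3.62) lower and called with total counts. Between TMM and total counts the order of the 5 repressor genes does not change, since scaling moves all of them alike, from *Mxd4* at the top to *Mxd3* at the bottom. Summed over the 4 MXD genes the level was 28.4 FPKM with TSA and 33.2 FPKM without. *Mxd4* supplied 81.4% of that sum in the TSA library and 45.8% in the untreated library. *Mxi1* supplied 13.3% and 33.4%, *Mxd1* 5.17% and 8.91%, and *Mxd3* 0.159% and 11.9%. The summed level and these shares depend on the implied gene model lengths, the shortest of which is that of *Mxd4*. By raw counts, without length, *Mxd4* had 465 and *Mxi1* 425 with TSA, and 310 and 1264 without. 

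Ratios between network genes inside a library do not depend on scaling between libraries. *Myc* stood at 2.16 (1.90 to 2.44) times the FPKM of *Max* in the TSA library and at 0.0355 (0.0266 to 0.0464) times in the untreated library, a 60.8-fold difference. Against the repressors it stood at 7.72 (6.71 to 8.91) times *Mnt* with TSA and 0.175 (0.131 to 0.230) times without. Against *Mxi1* it stood at 4.94 (4.38 to 5.57) times with TSA and 0.120 (0.0896 to 0.157) times without. *Myc* therefore outnumbered *Max*, *Mnt*, *Mxi1* and *Mxd1* transcripts per length in the TSA library and was below each of them in the untreated library.

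Against *Mxd4*, *Myc* stood at 0.806 (0.718 to 0.907) times its FPKM with TSA and 0.0872 (0.0642 to 0.116) times without. The order of these genes with TSA depends on the implied length of 1179 bases for *Mxd4*: by raw counts, without length, *Myc* stood at 1.64 times *Mxd4* with TSA and 0.177 times without. *Mxd4* in turn stood at 2.67 (2.33 to 3.07) times *Max* with TSA and 0.407 (0.359 to 0.459) times without. Summed, the 3 MYC paralogs reached 0.672 of the FPKM of the 4 MXD genes and *Mnt* together in the TSA library, and 0.0571 in the untreated library. These repressor genes together stood at 3.57 times *Max* with TSA and at 1.09 times without.

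**Figure D3:**
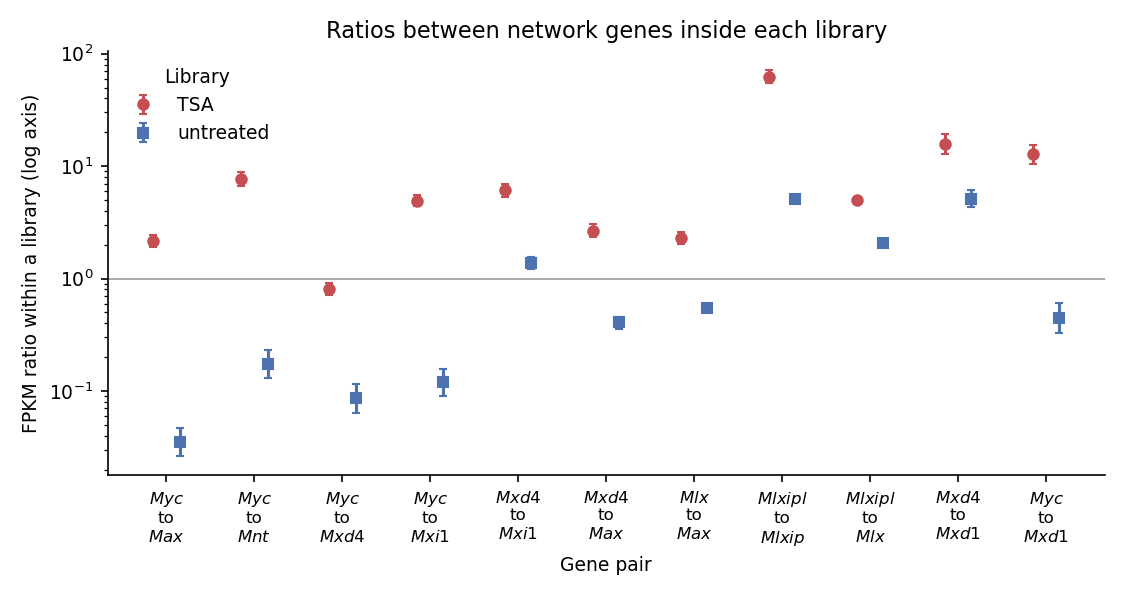
FPKM ratio of 1 gene to another inside the same library (log axis), TSA as red circles and untreated as blue squares, with exact 95% counting intervals; the grey line marks equal levels. *Myc* to *Max* is 2.16 with TSA and 0.0355 without, and *Mlxipl* to *Mlxip* 62.3 and 5.07.

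By share of the 10 genes' summed FPKM, the libraries had different leading genes. The sum was 79.9 FPKM with TSA and 101 FPKM without. *Myc* made up 23.3% of it in the TSA library and 1.31% in the untreated library, and *Max* 10.8% and 37.1%. *Mxd4* made up 28.9% with TSA and 15.1% without, *Mlx* 24.8% and 20.2%, *Mxi1* 4.72% and 11.0%, and *Mnt* 3.02% and 7.51%. By FPKM the MXD genes and *Mnt* together kept a like share, 38.5% with TSA and 40.4% without. That likeness depends on the implied gene model lengths, at 1179 bases for *Mxd4*, whose GENCODE M21 exons cover 8483 bases. Shares by raw counts were not computed.

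**Figure D4:**
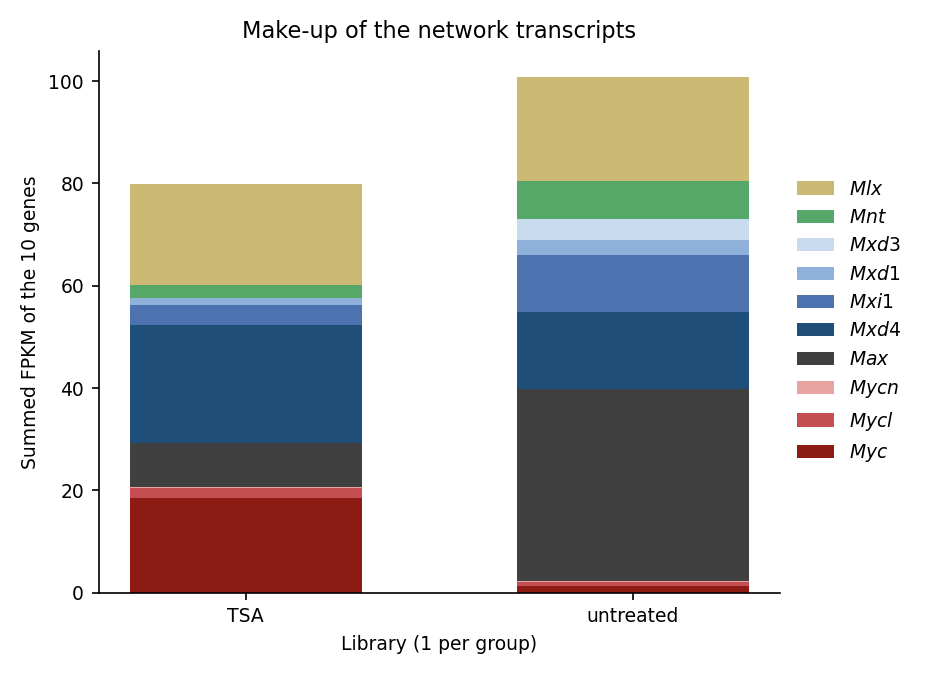
Summed FPKM of the 10 network genes in the TSA library (left) and the untreated library (right), 1 library per group with no error bar, split by gene. *Myc* makes up 23.3% with TSA and 1.31% without, and *Max* 10.8% and 37.1%.

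In order of FPKM the TSA library ran *Mxd4*, *Mlx*, *Myc*, *Max*, *Mxi1*, *Mnt*, *Mycl*, *Mxd1*, *Mycn* and *Mxd3*. Counting intervals of neighbours overlapped for *Mxd4* with *Mlx*, *Mlx* with *Myc*, *Mnt* with *Mycl*, *Mycl* with *Mxd1*, and *Mycn* with *Mxd3*. The untreated library ran *Max*, *Mlx*, *Mxd4*, *Mxi1*, *Mnt*, *Mxd3*, *Mxd1*, *Myc*, *Mycl* and *Mycn*. There the intervals overlapped for *Mxd3* with *Mxd1* and for *Myc* with *Mycl*. Levels between genes rest on the gene model lengths implied by the deposited values, which run from 1179 bases for *Mxd4* to 6596 bases for *Mxi1*. The exons of *Mxd4* in GENCODE M21 cover 8483 bases, so its level per length depends on the transcript model more than that of the other genes, whose implied lengths lie nearer to their exons in that annotation.

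In the MLX branch the partner genes diverged. *Mlx* had 865 counts (19.8 FPKM) with TSA and 898 counts (20.3 FPKM) without. It was 1.76-fold (1.60 to 1.93) higher with TMM and 1.03-fold (0.934 to 1.13) lower with total counts, and was called with neither. *Mlxipl*, for the carbohydrate-responsive factor ChREBP, had 98.3 FPKM with TSA and 42.5 FPKM without, and was 4.18-fold (3.999 to 4.36) higher. *Mlxip*, for MondoA, had 1.58 FPKM with TSA and 8.38 FPKM without, and was 2.94-fold (2.54 to 3.41) lower. *Mlxipl* stood at 62.3 (54.4 to 71.6) times *Mlxip* in the TSA library and at 5.07 (4.73 to 5.43) times in the untreated library. *Mga*, for a large MAX partner that also carries a T-box, had 1.64 FPKM with TSA and 5.48 FPKM without, and was 1.85-fold (1.69 to 2.03) lower, not called with TMM and called with total counts.

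Genes that MLX activates with MondoA or ChREBP were mostly higher in the TSA library. Of 18 genes 14 were called higher, against 26.0% of all genes tested, and 1 lower, with a median log2 ratio 3.11 above that of all genes. With total counts 11 were higher, against 16.0% of all genes, and 1 lower. *Thrsp*, for a lipogenic liver protein, had 1153 FPKM with TSA and 5.83 FPKM without, and was 357-fold (296 to 434) higher. *Scd1*, for a fatty acid desaturase, had 753 FPKM with TSA and 61.3 FPKM without, and was 22.1-fold (21.5 to 22.8) higher. Of the shared MondoA and ChREBP targets, named after their values were seen, *Txnip*, for an inhibitor of glucose uptake, was 3.15-fold (3.06 to 3.25) higher, and its relative *Arrdc4* was the member called lower, by 2.34-fold (2.09 to 2.64). Many of these genes are also hepatocyte genes, and the summed hepatocyte markers stood at 63751 FPKM in the TSA library and 6107 FPKM in the untreated library. Their part in these ratios was not tested.

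Targets that MYC activates were lower in the library with more counts for mouse *Myc*. Of 33 genes 28 were called lower, against 27.4% of all genes tested, and 1 higher, with a median log2 ratio of -2.10 relative to all genes. With total counts 31 were lower, against 48.7% of all genes, and 1 higher. *Rcc1*, for the exchange factor of the RAN GTPase, had 3.40 FPKM with TSA and 99.5 FPKM without, and was 16.2-fold (13.7 to 19.4) lower. *Npm1*, for nucleophosmin, was 11.9-fold (11.3 to 12.5) lower. The member called higher, *Ccnd2*, for cyclin D2, had 2.28 FPKM with TSA and 0.947 FPKM without and was 4.35-fold (3.46 to 5.50) higher. *Tert*, for the catalytic subunit of telomerase, had a ratio of 1.23 (1.07 to 1.42), and *Tfrc*, *Shmt2* and *Mat2a* were between 1.32-fold and 1.95-fold lower without a call. *Ccnd2* and these 4 genes are named after their values were seen. Proliferation markers, at 3.63 FPKM summed with TSA and 549 FPKM without, moved with these targets, and their part was not tested.

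A list of MIZ1 and genes repressed by MYC held 7 genes, of which 6 were tested. Of these 3 were called higher and 2 lower, where 26.0% of all genes were higher and 27.4% lower. The list is short, and its share called lower is near that of all genes. *Ndrg2*, a growth-restraining gene of the differentiated liver, had 410.4 FPKM with TSA and 39.1 FPKM without, and was 18.9-fold (18.2 to 19.7) higher. *Cebpa*, for a hepatocyte lineage factor, was 2.48-fold (2.36 to 2.60) higher with TMM and 1.37-fold higher, not called, with total counts. *Ndrg1* was 8.23-fold (7.04 to 9.68) lower. *Zbtb17*, the gene of MIZ1 itself, was 1.08-fold (0.885 to 1.32) lower, an interval that includes no difference, and *Cdkn1a*, for the cell cycle inhibitor p21, was 3.23-fold (2.80 to 3.75) lower. *Gadd45a*, a stress response gene, was 8.19-fold (6.83 to 9.89) higher. *Zbtb17*, *Cdkn1a* and *Gadd45a* are named after their values were seen.

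The SIN3 and histone deacetylase corepressor that MXD proteins recruit was called lower at a share near that of all genes. Of its 17 genes 5 were called lower, against 27.4% of all genes tested, and none higher, with a median log2 ratio of -0.56 relative to all genes. With total counts 12 were lower, against 48.7% of all genes, and none higher. The 5 called lower were *Hdac1*, *Hdac2*, *Rbbp4*, *Rbbp7* and *Sap30*. *Rbbp7*, for a histone-binding subunit, had 24.4 FPKM with TSA and 198 FPKM without, and was 4.49-fold (4.20 to 4.81) lower. *Hdac1*, for a catalytic subunit of the complex, had 8.94 FPKM with TSA and 59.6 FPKM without, and was 3.69-fold (3.27 to 4.18) lower. The scaffold genes were not called: *Sin3a* was 1.79-fold (1.63 to 1.96) and *Sin3b* 1.21-fold (1.09 to 1.35) lower. *Hdac1*, *Hdac2*, *Sin3a* and *Sin3b* are named after their values were seen.

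MYC coactivator genes were lower as well. Of 16 genes 10 were called lower, against 27.4% of all genes tested, and none higher, with a median log2 ratio of -1.03 relative to all genes. With total counts 14 were lower, against 48.7% of all genes, and none higher. All 8 proliferation markers were lower in the same library (3.63 FPKM summed with TSA, 549 FPKM without), and their part was not tested. *Ruvbl2*, for an ATPase of the TIP60 and INO80 complexes, had 6.45 FPKM with TSA and 93.6 FPKM without, and was 8.04-fold (7.06 to 9.19) lower. Its partner *Ruvbl1* was 4.70-fold (4.18 to 5.31) lower. *Trrap*, for the scaffold through which MYC contacts histone acetyltransferases, was 2.10-fold (1.95 to 2.27) lower.

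Genes that act on the stability of MYC protein were called lower in 10 of 17 cases, against 27.4% of all genes tested, with a median log2 ratio of -1.502 relative to all genes. With total counts 14 were lower, against 48.7% of all genes. None was called higher with either scaling, but *Ppp2r5a*, for a regulatory subunit of the phosphatase PP2A, was 1.99-fold (1.89 to 2.11) higher with TMM and passed the rule at 2.05-fold with DESeq2 size factors and 2.03-fold with upper quartiles. *Plk1* and *Aurka*, for mitotic kinases that stabilise MYC or N-MYC, were 119-fold (69.7 to 224) and 53.1-fold (35.6 to 83.1) lower. *Plk1* also stands among the proliferation markers. *Huwe1*, for a ubiquitin ligase of MYC, was 1.48-fold (1.43 to 1.54) lower and not called. *Fbxw7*, for the ligase that reads phosphorylated MYC, was 1.16-fold (0.970 to 1.39) lower, an interval that includes no difference, and *Skp2*, for another MYC ligase, was 40.3-fold (29.1 to 57.7) lower. *Ppp2r5a*, *Fbxw7* and *Skp2* were picked with their values in view.

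Genes of proteins that bind or regulate *Myc* RNA went in both directions. Of 10 tested 3 were called higher and 7 lower, with TMM and with total counts. Of all genes 26.0% were higher and 27.4% lower with TMM, so the share called higher is near that of all genes, and with total counts 16.0% were higher and 48.7% lower. *Igf2bp1*, a fetal gene whose product shields *Myc* RNA from decay, had 0 counts with TSA and 259 counts without. With 3 counts put in place of 0 it was 47.3-fold lower, and its 95% counting interval starts at 38.2-fold. *Igf2bp3*, its fetal relative, had 15 counts with TSA and 2782 counts without, and was 102-fold (61.5 to 182) lower. The members called higher were *Zfp36*, *Zfp36l1* and *Igf2bp2*, which are named with their values already seen. *Igf2bp2* had only 21 counts with TSA and 5 counts without, and was 7.67-fold (2.81 to 26.0) higher. With a minimum of 100 counts, or with FPKM plus 1, 2 genes of this list were called higher. *Zfp36*, for the RNA decay factor tristetraprolin, had 152 FPKM with TSA and 17.9 FPKM without, and was 15.4-fold (14.1 to 16.8) higher.

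**Figure D5:**
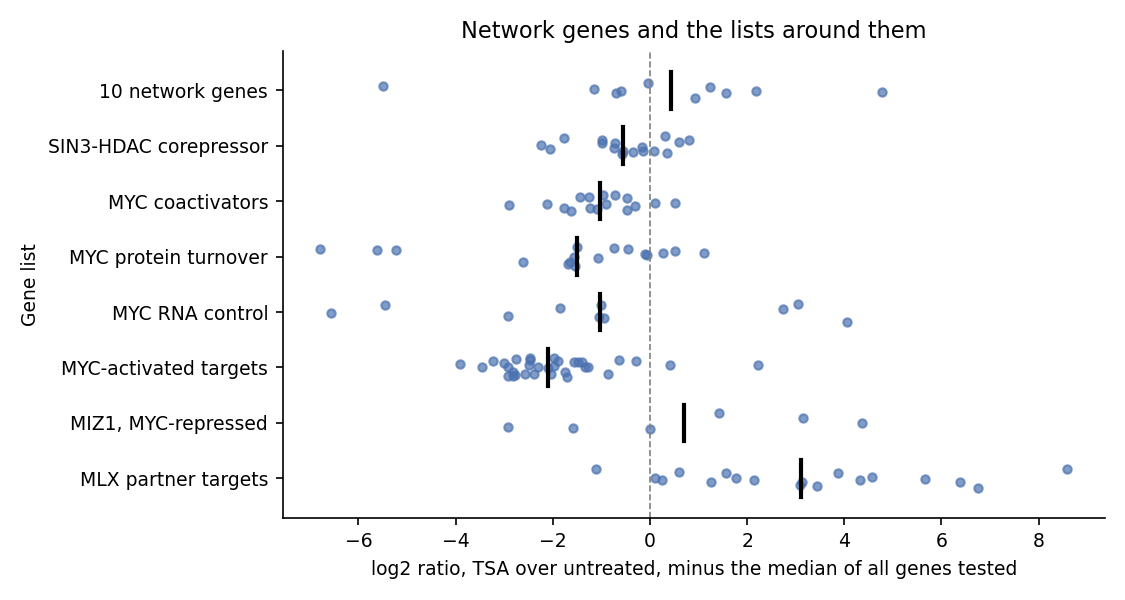
TSA over untreated log2 ratio minus the median of all genes tested, for the 10 network genes and 7 lists around them; each point is a gene tested and each black bar a list's median. MYC-activated targets have a median of -2.10 and targets of MLX partners a median of 3.11, and the 10 network genes lie on both sides of 0 with a median of 0.44.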

How the data were processed

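PolyA RNA of FVB/N mouse liver was measured in 2 libraries, grouped by the treatment label. The deposited counts are unscaled and hold no fractions, per the file headers and values. The authors' deposited FPKM equal those counts divided by library total and gene model length. The length this implies agreed between libraries within 0.1 base for 14271 of the 14271 genes with counts in each. Per the submitters' processing notes, the tools include Trimmomatic, HISAT2, Bowtie2 and DESeq, whose roles are not stated. The build, annotation, counter and strand setting: not given in the sources used here. Reads in overlapping exons may therefore be shared, as for *Mxd3* with *Prelid1* (105 bases) and *Mlx* with *Psmc3ip* (385 bases) in GENCODE M21. Exons of *Mxd4* overlap *Gm42846* (514 bases) and those of *Mxi1* overlap *Gm10197* (194 bases) in M21, and neither of these symbols is listed in the deposited counts.

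Library totals of 17088227 (TSA) and 17281523 (untreated) counts were scaled by TMM in edgeR 4.0.16 (factors 0.744 and 1.34, R 4.3.3). Alternatives were total counts, upper quartiles, DESeq2 1.42.0 size factors, FPKM with 0.1 or 1 added, and other count minimums and fold thresholds. Ratios have exact conditional binomial (Clopper-Pearson) 95% intervals and FPKM levels exact Poisson ones. These cover counting error only, because each group has 1 library. They take reads as independent, and may be too narrow because several reads can stem from 1 molecule. Zero counts were replaced by 3 counts in ratios. No p-value is given. TSA and untreated counts were also simulated for 13027 genes, not all of which are in the groups that follow. Calls were made for 99 of 99 genes changed 3-fold, for 96 of 96 changed 8-fold and for 40 of 12727 left alone. Variation between animals could not be estimated for this simulation from 1 library per group. The simulation was also given its true scaling, so error from estimating or choosing a scaling was not covered. These numbers therefore do not show how often calls in the real libraries are right or wrong. Python 3.11.15 with pandas 2.3.3 and scipy 1.17.1 was used.

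The members and the 8 gene lists were chosen with earlier results of these data known. The text could name up to 4 genes per list that reached 50 counts over both libraries: the top 2 by counts and the top 2 by size of ratio. Other genes are marked where they appear. *Pvt1* and *Cip2a* were not matched.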

Additional observations from a re-analysis of the deposited data

How the results depend on the processing

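Under TMM, DESeq2 size factors and upper quartiles the 10 genes gave the same calls, 3 higher and 2 lower. With total counts 5 were lower, with FPKM plus 0.1 or plus 1 4 were lower, and with FPKM plus 1 a single gene, *Myc*, was called higher. A minimum of 100 counts left 1 lower, since *Mxd3* was no longer tested. Thresholds of 1.5-fold and 4-fold gave 4 and 1 lower. For the 13 genes with *Mlxip*, *Mlxipl* and *Mga*, 4 were higher and 3 lower, against 7 lower with total counts, 6 lower with FPKM plus 0.1, 2 higher and 6 lower with FPKM plus 1, and 6 and 1 lower at 1.5-fold and 4-fold. FPKM follows total counts, which moved the median of all genes by -0.85 on the log2 scale. *Mlx* was at 0.81 with TMM and -0.04 with total counts. No called member changed direction under any of these settings. That was fixed in advance and shows no stability: a call needs a 2-fold difference, and no scaling moved log2 ratios further from TMM than -0.85. The ratio of MYC paralogs to MXD genes and *Mnt* in the untreated library was 0.0449 by raw counts without length, against 0.0571. Without length *Myc* to *Mxd4* with TSA moved to 1.64, against 0.806, which turns their order; *Mxd4* to *Mxi1* moved to 1.09, against 6.12, *Mxd4* to *Max* to 1.22, against 2.67, and *Mlxipl* to *Mlxip* to 30.9, against 62.3. Without length *Myc* stayed above *Mnt*, *Mxi1* and *Mxd1* with TSA (2.85, 1.80 and 6.31) and below them without (0.0646, 0.0435 and 0.223). No paired analysis was possible because each group has 1 library, and no library could be left out for the same reason. *Mycn*, at 12 and 10 counts, and *Mxd3*, at 1 count with TSA, are limited by depth.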

Other observations

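Implied gene model lengths differed from GENCODE M21 in both directions. For *Mnt* the deposited values imply 6505 bases, and the exons of the gene cover 4627 bases in M21. For *Mlx* the lengths were 2554 and 1999 bases, for *Max* 2583 and 3598 bases, and for *Myc* 2399 and 2717 bases. These values belong to the annotation behind the counts, which the sources used here do not name.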
